A study of Mus musculus with 3 samples.

Results

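The growth cone is the motile tip of a growing neurite, and 9 of its genes were followed in mouse retinal horizontal cells at postnatal days 6, 8 and 11 (P6, P8 and P11). The 9 genes were taken as a named list out of 32285 features. They are Gap43, Basp1, Marcks and Marcksl1, whose products sit under the plasma membrane; Dpysl2, Dpysl3, Dpysl5 and Crmp1 of the collapsin response mediator protein (CRMP) family; and Dcx, the gene of doublecortin. Single-cell RNA had been measured with 10x Genomics 3' droplet chemistry in 3 libraries, 1 at P6, 1 at P8 and 1 at P11. All animals carried the alleles Cx57icre and Ai14. In these mice an improved Cre driven from the connexin 57 gene switches on a red reporter, and the dissociated retinas were sorted for labelled cells. No wild-type or unsorted retina is used here, and the labels give neither the number nor the sex of the animals.

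Growth cones steer by rebuilding actin filaments and microtubules under the membrane. GAP-43, BASP1 and MARCKS are acidic proteins that bind the inner membrane leaflet, and protein kinase C and calmodulin act on them. CRMPs bind tubulin dimers and were found through the collapse of growth cones by semaphorin 3A (first named collapsin), while doublecortin stabilises the microtubules of young neurons. Horizontal cells are interneurons of the outer retina, whose processes contact cone and rod terminals during the first postnatal weeks.

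A barcode was counted as a horizontal cell when it held at least 1000 genes, at most 10% mitochondrial UMIs and a UMI of at least 2 of the 3 transcription factor genes Lhx1, Onecut1 and Onecut2. A UMI (unique molecular identifier) marks 1 captured transcript. The P6 library gave 7145 cells, the P8 library 3153 and the P11 library 4757, or 94.4%, 96.1% and 96.2% of the barcodes passing the first 2 limits. A cell held a median of 12161, 20671 and 22106 UMIs, and all cells of a library together 82305608, 62520239 and 103160766. The cells carried further horizontal cell genes, with Calb1 (calbindin) at 701.8, 1714 and 2952 counts per 1000000 UMIs (CPM). Of the lists for other retinal cells, the amacrine sum of 2566 to 2679 CPM was mostly C1ql1, the ganglion sum of 834 to 1383 CPM mostly Nefl, and the Müller sum of 200 to 298 CPM mostly Glul. The sums for rods, cones, bipolar cells, cycling progenitors, microglia, endothelial cells and astrocytes were at most 21.2 CPM. Between 9 and 13 cells of a library shared their barcode with another library.

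The P8 library stood apart in its sex chromosome transcripts, which were looked up after the data had been seen. The X-inactivation transcript Xist had 569.4 CPM in P6 cells, 0 UMIs in P8 cells and 310 CPM in P11 cells, and the sum of 4 Y-linked genes was 92.44, 219.1 and 177.1 CPM. Age and this difference between the libraries cannot be told apart, which bears on Dcx as an X-linked gene. The ages are compared without a test, since each has a single library. Brackets after levels, ratios and shares hold exact 95% intervals (Poisson, conditional binomial and Clopper-Pearson) that cover counting error only. A gene is said to have fallen or risen where 2 ages differed 2-fold or more and the higher one reached 20 CPM.

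Between P6 and P11, 6 of the 9 genes fell and 0 rose, over a range that ran from 92.1-fold for Marcksl1 to 1.31-fold for Basp1, which did not pass the limit. Over all 7161 genes measured, 4.71% were at least 2-fold lower at P11 than at P6 and 2.36% at least 2-fold higher. At P8 against P6, 2 of the 9 were lower and 0 higher, against 8.55% and 1.73% of 7067 genes. At P11 against P8, 4 of the 9 were lower and 0 higher, against 0.975% and 2.04% of 6770 genes. The 9 genes had a median log2 ratio of -0.81 for P8 over P6, -0.51 for P11 over P8 and -1.36 for P11 over P6, beside medians over all genes of -0.14, 0.07 and -0.08. These comparisons share libraries and are not independent of each other.

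**Figure D1:**
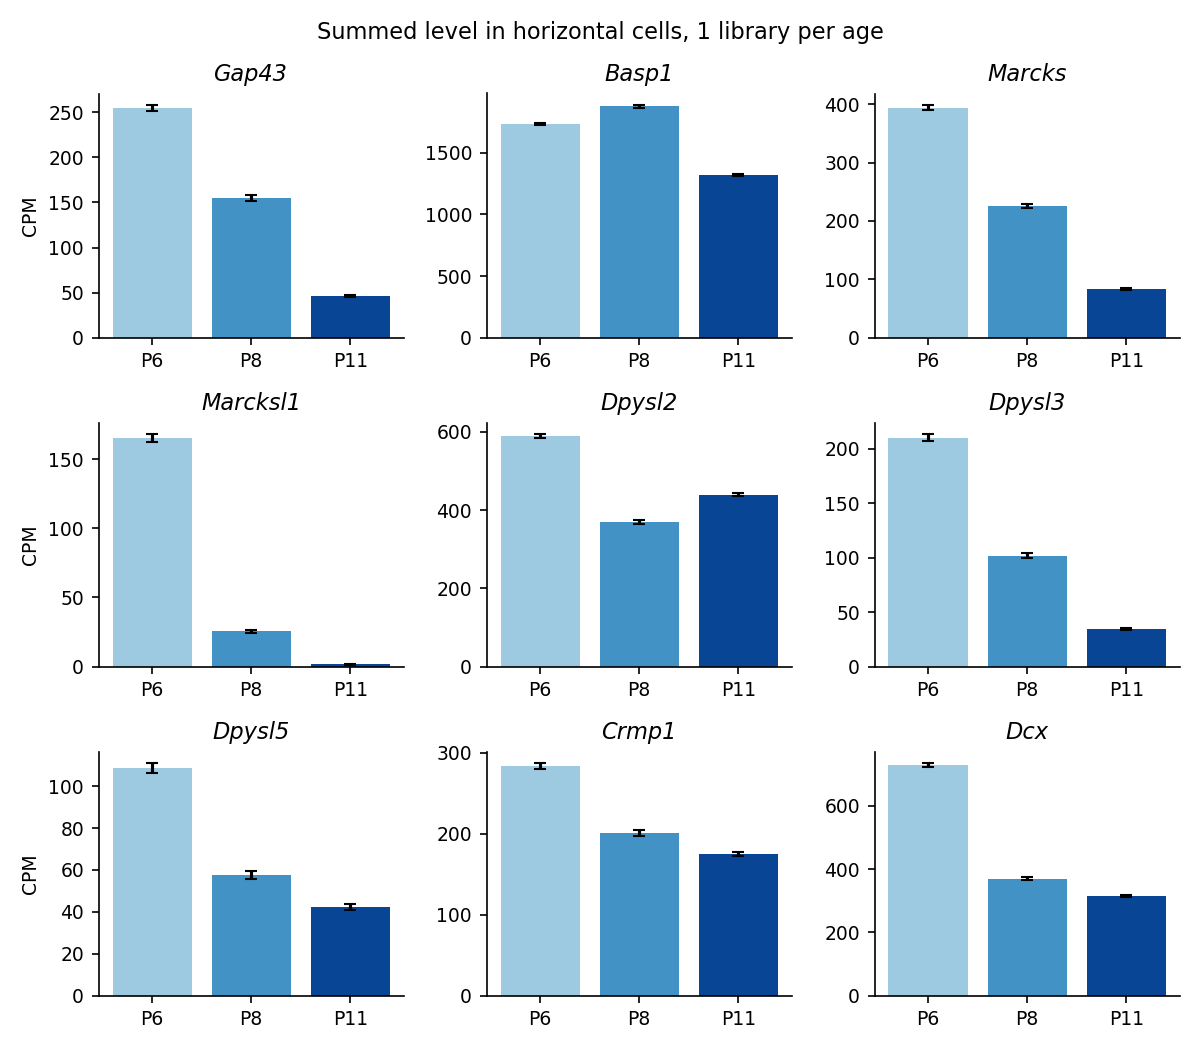
Summed level of each gene in horizontal cells (CPM, each panel on its own scale that starts at 0) in the P6, P8 and P11 libraries. Bars are 1 library each and error bars are exact Poisson 95% intervals. Marcksl1 is near 0 at P11, at 1.79 CPM, while Basp1 keeps 1319 CPM and Dpysl2 is lowest at P8.

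Among the membrane-associated proteins, Marcksl1 fell furthest. It encodes the small relative of MARCKS that binds actin and calmodulin and is also called MacMARCKS. Its level was 165.2 CPM (162.4 to 168) at P6, 25.51 (24.27 to 26.8) at P8 and 1.793 (1.544 to 2.071) at P11, from 13596, 1595 and 185 UMIs. It was 6.48-fold lower at P8 than at P6 (6.15 to 6.82) and 14.2-fold lower at P11 than at P8 (12.2 to 16.7). Ranked by ratio it was lowest of all 6770 genes for P11 over P8 and second lowest of 7161 for P11 over P6.

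The Marcksl1 UMIs left at P11 lay in part in a few barcodes with markers of other cells. Within the horizontal cells, 52 barcodes at P11 (1.09%) held UMIs of at least 2 markers of 1 other cell type, counting only markers found in at most 5% of horizontal cells of every library. These 52 barcodes held 72 of the 185 Marcksl1 UMIs (38.9%), a level of 56.08 CPM among them. Without them Marcksl1 stood at 1.109 CPM (0.9141 to 1.334), an alternative chosen after seeing the data, and the log2 ratio of P11 over P6 was -7.22 in place of -6.53. Of the 52 barcodes, 11 carried ganglion cell markers. They had a median of 30622 UMIs, 6 of the 11 had no Lhx1 UMI, and they held 58 Marcksl1 UMIs (31.4%) and 219 Gap43 UMIs (4.56% of that gene). At P6 and P8 the corresponding barcodes, 99 and 28 in number, held 1.33% and 1.76% of the Marcksl1 UMIs.

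Gap43 and Marcks followed with falls of similar size. Gap43, the gene of the protein kinase C substrate GAP-43 of growing and regenerating axons, had 254.6 CPM (251.1 to 258) at P6, 154.7 (151.7 to 157.8) at P8 and 46.52 (45.21 to 47.85) at P11. At P11 it was 5.47-fold lower than at P6 (5.3 to 5.65). Marcks, which encodes the myristoylated protein kinase C substrate that crosslinks actin, had 394.3 CPM (390 to 398.6) at P6, 225.4 (221.7 to 229.2) at P8 and 83.98 (82.22 to 85.76) at P11, a 4.7-fold lower level at P11 than at P6 (4.58 to 4.81). Barcodes with markers of other cells held 5.04% of Gap43 and 3.2% of Marcks UMIs at P11, and without them the levels were 44.73 and 82.32 CPM.

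Basp1, the gene of the brain acid-soluble protein that shares the membrane-binding mode of GAP-43 and MARCKS, differed from the other 3 of this class. Its level was 1733 CPM (1724 to 1742) at P6, 1875 (1864 to 1886) at P8 and 1319 (1312 to 1326) at P11. Its log2 ratios were 0.11 for P8 over P6, -0.51 for P11 over P8 and -0.39 for P11 over P6, none past 2-fold.

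The promoters of Marcksl1 and Basp1, the members with the largest and smallest P11 over P6 difference, are set beside that of Dcx, which differed from both in having no GC box. The sequences come from RefSeq (GRCm38.p6, the assembly also called mm10), run 250 bases before to 50 after a start site, and were given for 5 of the 9 genes. Marcksl1 is at chr4:129513331-129513630 on the plus strand, Basp1 at chr15:25413715-25414014 and Dcx, from 1 of its 2 listed starts, at chrX:143933170-143933469, both on the minus strand. Capitals mark, on either strand, the GC box GGGCGG, the box CCAAT, the TATA-type motif TATAAA and the homeodomain-type motif TAATTA.
Marcksl1: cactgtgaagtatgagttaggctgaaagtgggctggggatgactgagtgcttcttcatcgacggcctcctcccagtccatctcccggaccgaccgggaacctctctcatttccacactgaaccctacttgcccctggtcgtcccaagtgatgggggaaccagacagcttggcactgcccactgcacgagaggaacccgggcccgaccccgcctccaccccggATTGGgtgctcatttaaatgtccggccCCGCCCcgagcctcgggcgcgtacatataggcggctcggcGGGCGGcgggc
Basp1: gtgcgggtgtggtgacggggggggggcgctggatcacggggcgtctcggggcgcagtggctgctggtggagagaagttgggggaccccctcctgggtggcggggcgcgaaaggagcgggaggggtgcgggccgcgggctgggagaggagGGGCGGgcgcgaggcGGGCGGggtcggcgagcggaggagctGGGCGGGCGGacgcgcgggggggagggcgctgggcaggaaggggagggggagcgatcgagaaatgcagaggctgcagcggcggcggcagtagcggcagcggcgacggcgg
Dcx: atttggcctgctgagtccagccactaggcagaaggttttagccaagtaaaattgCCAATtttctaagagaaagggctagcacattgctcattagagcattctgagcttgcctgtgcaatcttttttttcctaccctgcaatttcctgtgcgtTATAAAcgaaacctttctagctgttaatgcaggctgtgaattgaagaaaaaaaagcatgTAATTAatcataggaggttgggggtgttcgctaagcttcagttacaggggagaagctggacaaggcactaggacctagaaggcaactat
GGGCGG occurred 2 times in the Marcksl1 window and 4 times in that of Basp1, where 2 copies overlap, and not in that of Dcx. CCAAT occurred once in the Marcksl1 window and once in that of Dcx, which also held TATAAA once and the motif TAATTA once. Of 32851 RefSeq promoters of this length, 35.7% held GGGCGG and 37.4% held CCAAT, while 13.6% held TATAAA and 5.29% held TAATTA. A motif bound by Onecut factors, ATCAAT, was searched for too and was in none of the 3 windows and in 7.54% of all. A match of letters is no evidence of binding.

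The CRMP genes divided into a member that fell in both intervals, others with smaller differences, and 1 that was lowest at P8. Dpysl3, which encodes CRMP4, had 210.1 CPM (207 to 213.2) at P6, 101.7 (99.18 to 104.2) at P8 and 34.36 (33.24 to 35.51) at P11. It was 2.07-fold lower at P8 than at P6 (2.01 to 2.13) and 2.96-fold lower at P11 than at P8 (2.84 to 3.08). The call at P8 ended under other scalings of the libraries, with log2 ratios of -0.77 (trimmed mean, TMM) and -0.73 (median of ratios) in place of -1.05. Dpysl5, the gene of CRMP5, had 108.8 CPM (106.5 to 111) at P6, 57.39 (55.53 to 59.3) at P8 and 42.37 (41.12 to 43.65) at P11, and at P11 it was 2.57-fold lower than at P6 (2.48 to 2.66).

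Crmp1, which carries the name of the family, stood at 283.6 CPM (280 to 287.3) at P6, 201 (197.5 to 204.6) at P8 and 175.4 (172.9 to 178) at P11, which is 1.62-fold lower at P11 than at P6. Dpysl2 encodes CRMP2, the member best known for binding tubulin and for its phosphorylation by GSK3 and CDK5. Its level was 588.5 CPM (583.3 to 593.8) at P6, 369 (364.2 to 373.7) at P8 and 439.5 (435.5 to 443.6) at P11. It was the only one of the 9 genes with a higher level at P11 than at P8, by a log2 ratio of 0.25. That ratio lay between 0.13 and 0.29 under the alternatives tried.

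Dcx, on the X chromosome, had 728.7 CPM (722.9 to 734.6) at P6, 369.8 (365.1 to 374.6) at P8 and 314.2 (310.8 to 317.6) at P11. It was 1.97-fold lower at P8 than at P6 (1.94 to 2), just short of the limit, and 2.32-fold lower at P11 than at P6 (2.29 to 2.35).

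The order of loss differed with the interval. At P8 the level as a percent of that at P6 was 15.4% for Marcksl1, 48.4% for Dpysl3, 50.8% for Dcx, 52.8% for Dpysl5, 57.2% for Marcks, 60.8% for Gap43, 62.7% for Dpysl2, 70.9% for Crmp1 and 108% for Basp1. At P11 it was 1.09% for Marcksl1, 16.4% for Dpysl3, 18.3% for Gap43, 21.3% for Marcks, 39% for Dpysl5, 43.1% for Dcx, 61.8% for Crmp1, 74.7% for Dpysl2 and 76.1% for Basp1. Dcx and Dpysl5 were thus below Gap43 and Marcks at P8, relative to P6, and above them at P11.

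Of the whole log2 difference between P6 and P11, 80.6% was present by P8 for Dcx, 71.6% for Crmp1 and 67.8% for Dpysl5. The shares were 41.3% for Marcksl1, 40.1% for Dpysl3, 36.2% for Marcks and 29.3% for Gap43. These shares, and the daily changes below, depend on the scaling of the libraries. Under TMM the log2 ratios of P8 over P6 and P11 over P6 were -0.22 and -0.50 for Crmp1, in place of -0.50 and -0.69. For Dcx they were -0.70 and -1.02, for Dpysl5 -0.65 and -1.16, for Marcksl1 -2.42 and -6.33, and for Gap43 -0.44 and -2.25. Crmp1 was thus not set apart from Marcksl1 as an early loss under every scaling. The intervals are of unequal length, and per day the log2 change of Dcx was -0.49 from P6 to P8 and -0.08 from P8 to P11. For Gap43 it was -0.36 and -0.58 per day, for Marcks -0.40 and -0.47, for Dpysl3 -0.52 and -0.52, and for Marcksl1 -1.35 and -1.28. In both steps 7 of the 9 genes were lower, at any size, against 15.3% of 7161 genes.

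**Figure D2:**
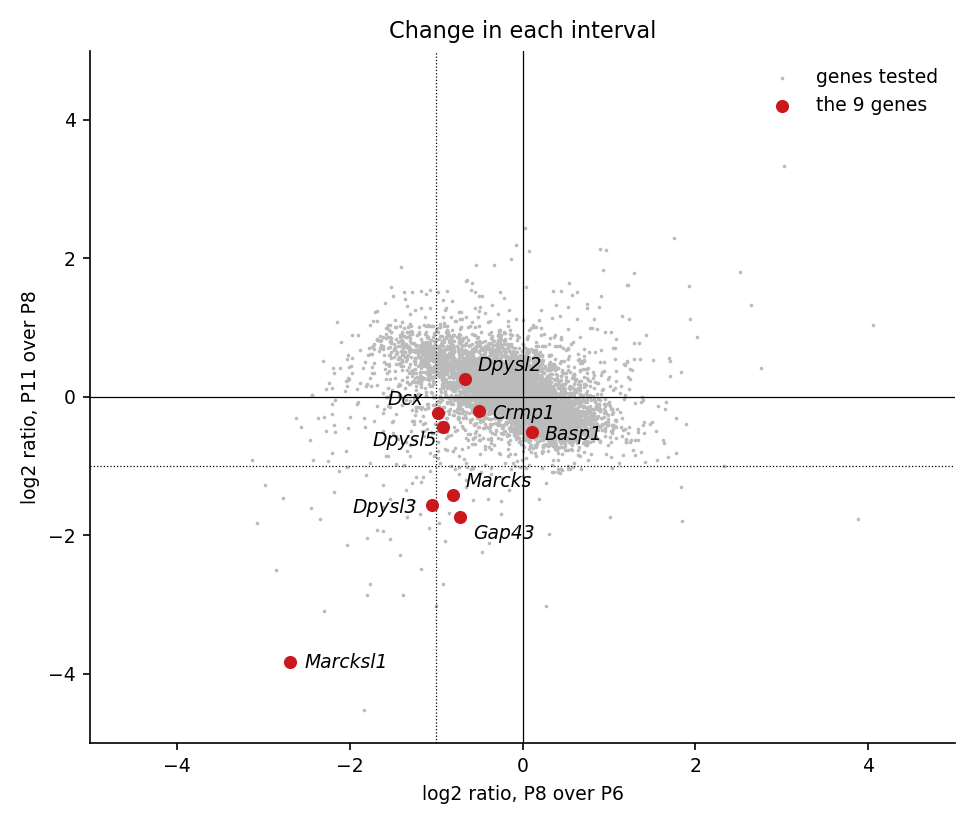
Each gene's log2 ratio of P8 over P6 (horizontal axis) and of P11 over P8 (vertical axis), with the 9 genes in red and all genes measured in grey. Dotted lines mark 2-fold lower, both axes contain the P8 library, and 2 genes of the grey set lie outside the axes. Gap43, Marcks, Dpysl3 and Marcksl1 lie below the horizontal dotted line, while Dcx, Dpysl5 and Crmp1 lie between it and 0.

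The length of a gene moved with its P8 over P6 ratio. When genes were divided into 5 groups by span, the median of P8 over P6 was 0.27 on the log2 scale in the shortest (median span 4.81 kb), -0.29 in the fourth (60.1 kb) and -0.73 in the longest (164 kb). For P11 over P8 these medians were -0.26, 0.19 and 0.43, and for P11 over P6 0.03, -0.11 and -0.29. Gap43 spans 92.2 kb and Dpysl3 117 kb, both in the longest group. The P8 over P6 ratio of Gap43 (-0.72) was close to the median of its group, in which 31.3% of genes were at least 2-fold lower, and its P11 over P8 ratio (-1.73) was far below the group's 0.43. Marcks (5.55 kb) and Marcksl1 (2.4 kb) were in the shortest group, where 1.2% of genes were at least 2-fold lower at P8 than at P6. Basp1 (50.5 kb), Dpysl2 (65.8 kb), Dpysl5 (87.8 kb), Crmp1 (50.2 kb) and Dcx (77.5 kb) were in the fourth group. Malat1, a nuclear RNA, likewise had its lowest level at P8, with 20336.6, 15319.2 and 21409.1 CPM at the 3 ages. The part of span and of nuclear RNA in the P8 values was not tested.

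Shares of cells with a UMI were compared after every cell was thinned to 3000 UMIs, which left out 377, 97 and 90 cells. Marcksl1 was found in 37.6% of cells (36.4 to 38.7) at P6, 6.84% (5.97 to 7.79) at P8 and 0.386% (0.229 to 0.609) at P11. Gap43 was found in 49.3% (48.1 to 50.5), 33.7% (32 to 35.4) and 11.8% (10.9 to 12.7). Marcks gave 68%, 46.7% and 21.2%, and Dpysl3 45.6%, 23.9% and 9.9%. Dcx was found in 84.8%, 63.6% and 58.5% of cells, and Dpysl5 in 27.1%, 15% and 11.8%.

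Crmp1 gave 55.5%, 45.7% and 40.5% of thinned cells, Dpysl2 81.9%, 64.9% and 71.6%, and Basp1 98.4%, 98.1% and 97.1%. Without thinning the shares at P11 were 47.5% for Gap43, 2.38% for Marcksl1, 72.3% for Marcks and 97.2% for Dcx, against 79.2%, 74.5%, 91.1% and 96.8% at P6, where the cells were shallower.

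**Figure D3:**
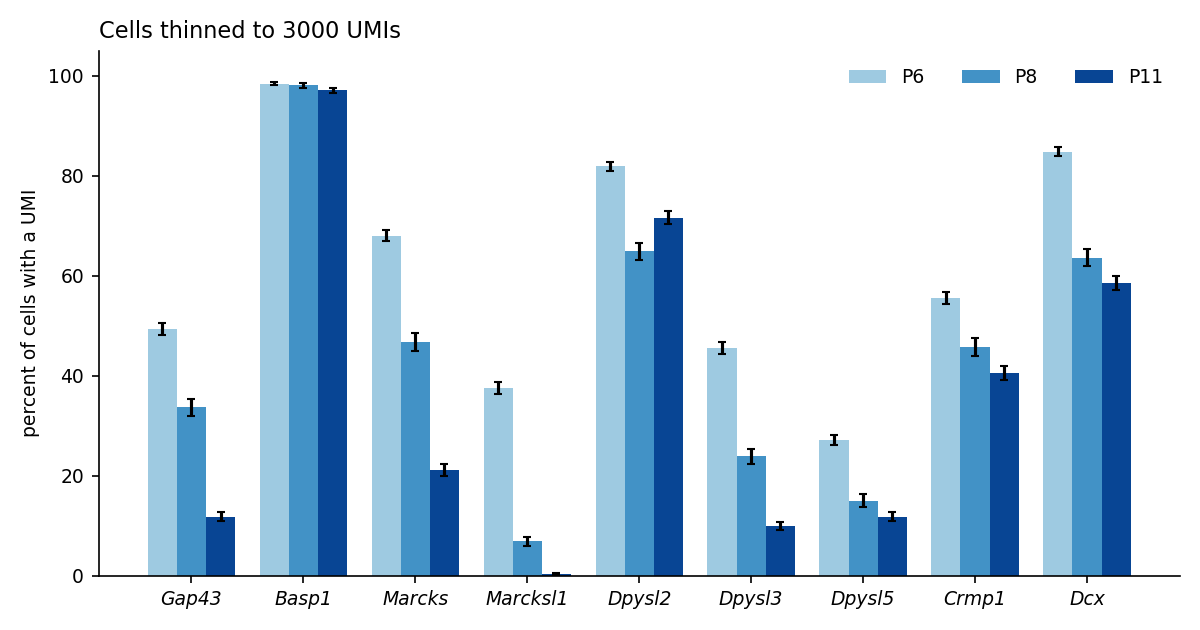
Percent of horizontal cells with at least 1 UMI of each gene after thinning every cell to 3000 UMIs, at P6, P8 and P11, with exact Clopper-Pearson 95% intervals. At P11 Marcksl1 is in 0.386% of cells, Gap43 in 11.8% and Basp1 in 97.1%.

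A count drawn at random from equal cells has a variance equal to its mean. In thinned cells the variance over the mean lay between 1.01 and 1.32 for all 9 genes in all libraries. Basp1 at P8 (1.32) and Gap43 at P8 (1.31) had the highest values, and Crmp1 (1.06, 1.01 and 1.02) was among the lowest. At P6 the 5% of cells with most Gap43 held 23% of its UMIs. At P6, 50.7% of cells had no Gap43 UMI, where equal cells of that mean would give 46%, and 15.2% had no Dcx UMI, where they would give 12%.

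Marcks and Marcksl1 encode paralogs, and their balance turned further to Marcks at each age. Marcks had 2.387 UMIs for each Marcksl1 UMI at P6 (2.339 to 2.435), 8.836 in P8 cells (8.389 to 9.311) and 46.83 in P11 cells (40.48 to 54.46). The ratio was 3.7 times as high at P8 as at P6, 5.3 times as high at P11 as at P8, and 19.6 times as high at P11 as at P6. Being a ratio within a library, it does not depend on the scaling between libraries. It depended on which barcodes were counted at P11, where it was 74.2 without barcodes holding markers of other cells, 58.4 with a UMI of all 3 transcription factors required and 37.5 with only 1 required. At P6 and P8 these settings gave 2.38 to 2.39 and 8.77 to 8.91.

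Both genes were seen together in 26.2%, 3.44% and 0.129% of thinned P6, P8 and P11 cells. Marcks alone was seen in 41.8%, 43.3% and 21.1%, and Marcksl1 alone in 11.4%, 3.4% and 0.257%. Cells with neither made up 20.7%, 49.9% and 78.6%. The share with Marcks alone was therefore similar at P6 and P8, while the share with any Marcksl1 was much lower at P8.

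**Figure D4:**
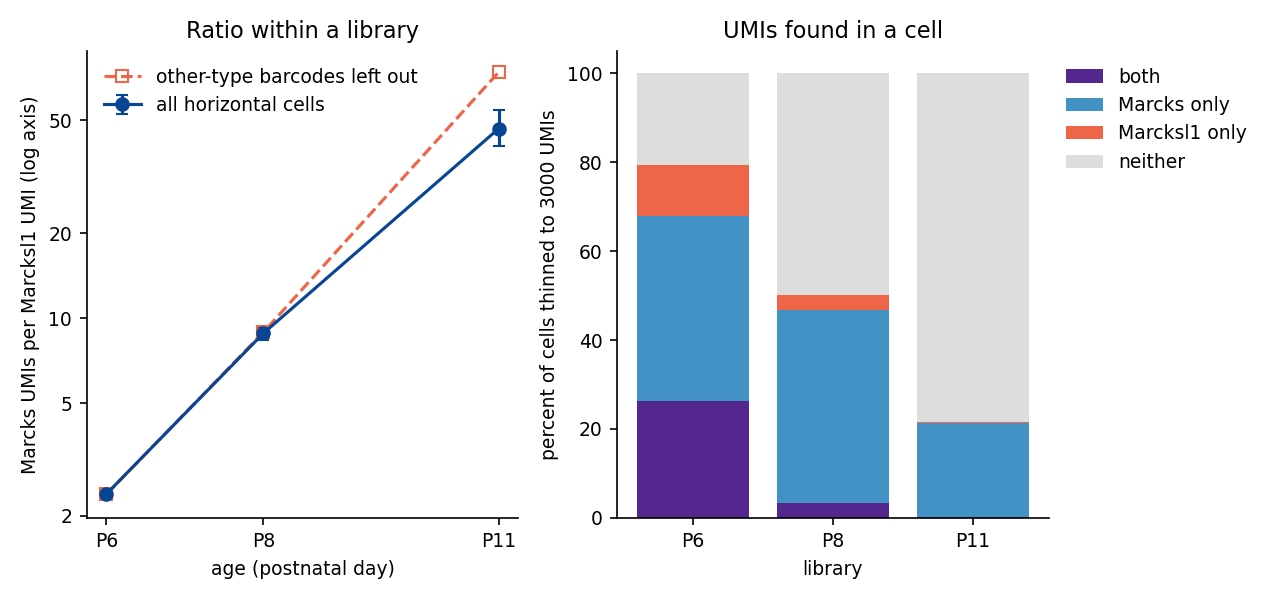
Left, Marcks UMIs per Marcksl1 UMI in each library on a log axis, with exact 95% intervals, for all horizontal cells (circles) and without barcodes holding UMIs of at least 2 rare markers of another cell type (squares, no interval drawn). Right, percent of cells thinned to 3000 UMIs with UMIs of both genes, of 1 or of neither. The ratio is 2.39, 8.84 and 46.8 in all horizontal cells.

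Within each library Gap43, Marcks, Dpysl3 and Dcx were lower in cells with more Mgarp, with intervals below 1 at every age, though none of these 4 by 2-fold. Mgarp is a mitochondrial protein gene whose own level was 159.7, 2641 and 5433 CPM at the 3 ages. Thinned cells above the median Mgarp count of their library were set against those at or below it. These were 2087 against 4681 cells at P6, 1502 against 1554 at P8 and 2179 against 2488 at P11. The median count was 0 UMIs for P6 cells, 7 for P8 cells and 16 for P11 cells. The P6 split therefore only parted cells with a Mgarp UMI from cells without. Gap43 was 204 CPM in the cells above and 283 CPM in the cells at or below at P6, 107 and 205 CPM at P8, and 36.9 and 52 CPM at P11. The ratios of above over at or below were 0.723 (0.678 to 0.77), 0.524 (0.469 to 0.585) and 0.709 (0.601 to 0.835). For Marcksl1 they were 0.824 (0.763 to 0.89), 0.463 (0.347 to 0.614) and 0.457, the last with an interval of 0.145 to 1.25 that rests on 6 and 15 UMIs.

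Dpysl3 had ratios of 0.862, 0.733 and 0.797, Dpysl5 of 0.822, 0.717 and 0.867, Marcks of 0.88, 0.869 and 0.851, and Dcx of 0.95, 0.804 and 0.806. Basp1, with 1.01, 0.962 and 1.07, and Crmp1, with 0.98, 0.945 and 0.959, lay close to 1. Dpysl2 had 1.02, 0.932 and 0.933. Malat1 moved with the split as well, at 0.913, 0.733 and 0.637, and its part in these ratios was not tested. Lhx1 had 1.01, 0.922 (0.881 to 0.966) and 0.954 (0.919 to 0.991), while Calb1 went the other way with 1.3, 1.3 and 1.14. P6 barcodes without any of the 3 transcription factors held 284 CPM of Mgarp (242 to 333). Those among them with rod markers held 171 CPM (91.2 to 293), against 159.7 CPM in P6 horizontal cells. The part of free Mgarp RNA in the P6 split was not tested. Median depth before thinning was 12463 and 12465 UMIs at P6, 20978 and 20692 at P8 and 21598 and 22847.5 at P11, above and at or below.

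**Figure D5:**
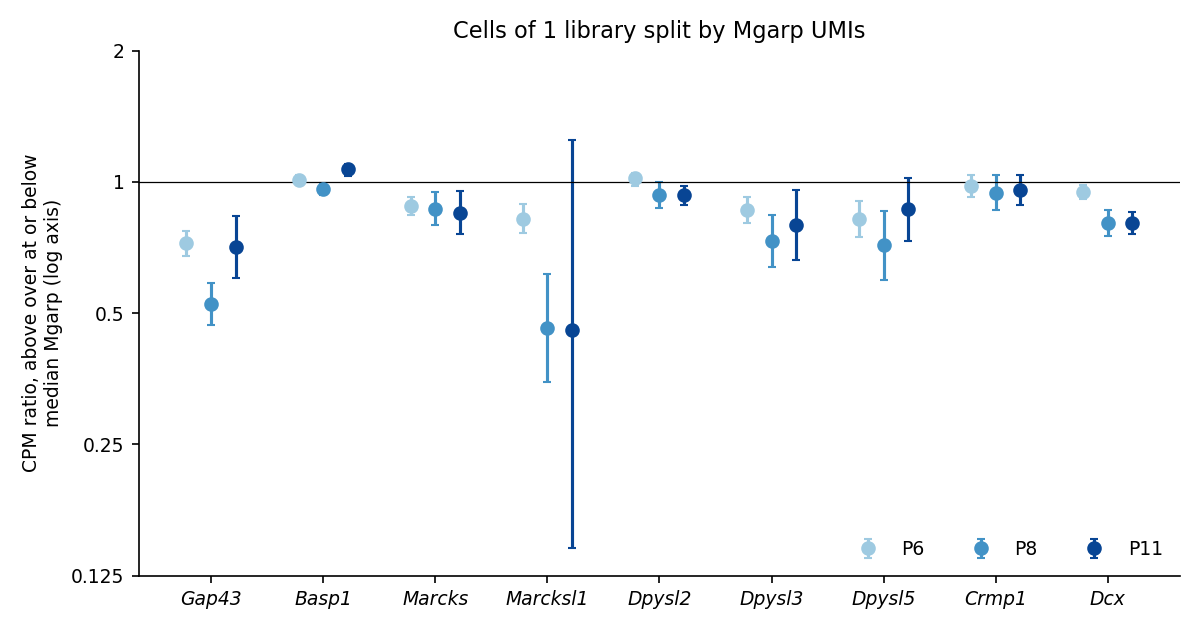
CPM ratio of cells above over cells at or below the median Mgarp UMIs of their own library, on a log axis, for each gene at P6, P8 and P11, with exact 95% intervals over UMIs. Gap43 lies below 1 in each library, from 0.524 to 0.723, and Basp1 and Crmp1 lie near 1. The median is 0 UMIs at P6.

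Among the genes themselves, joint detection differed between pairs and ages. In thinned cells Marcksl1 was seen in 39.6% of cells with a Gap43 UMI and 35.5% of cells without at P6. At P8 these shares were 9.32% (7.61 to 11.3) and 5.58% (4.62 to 6.67), and at P11 1.45% (0.63 to 2.85) and 0.243% (0.117 to 0.446). Dcx was seen in 84.7% of P6 cells with a Gap43 UMI and 85% of those without, and at P11 in 58.2% and 58.6%.

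The few thinned P11 cells in which Marcksl1 was still seen, 18 of 4667, differed in the markers of other cells. The bipolar list summed to 759 CPM in them (545 to 1030, from 41 UMIs) and to 4.73 CPM in the remaining 4649 cells (3.66 to 6.02). The ganglion list summed to 1685.2 CPM and 818 CPM, and Gap43 stood at 278 CPM (155 to 458) and 44 CPM (40.6 to 47.6). In all P11 horizontal cells Nefl made 815 of the 834 CPM of the ganglion list and was found in 98.2% of cells. A higher ganglion sum is therefore not by itself a mark of ganglion cells. Counted by rare markers and before thinning, the 9 P11 barcodes with bipolar markers held 7 of the 185 Marcksl1 UMIs (3.78%). The 11 with ganglion markers, a count that leaves Nefl out, held 58 (31.4%). How the 41 bipolar-list UMIs divide over markers and cells was not examined. The 550 P11 cells with Gap43 had a ganglion sum of 1004.2 CPM, against 797 CPM in the 4117 without, and a bipolar sum of 12.7 and 6.96 CPM. Cells with Dcx, 2731 in number, had 816 and 4.39 CPM for the ganglion and bipolar lists, against 829 and 12.2 CPM in cells without. The part of other cell types in the late Marcksl1 and Gap43 UMIs was not tested beyond these values.

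Outside the rule, barcodes with at least 2 rod markers and none of the 3 transcription factors were counted beside the horizontal cells. Such barcodes hold the RNA of rods as well as free RNA of other cells, so a gene that rods make does not measure free RNA there. They numbered 28, 30 and 36 in the P6, P8 and P11 libraries, with median depths of 1918, 2404 and 2055 UMIs, and they held 853 CPM of Mgarp at P11. Dpysl3, at 210.1, 101.7 and 34.36 CPM in horizontal cells, was far lower there than in the rod-marker barcodes, which had 948, 909 and 884 CPM. In horizontal cells the rod list summed to 9.61, 8.57 and 6.78 CPM, against 10628.5, 21448.1 and 22467.4 CPM in the rod-marker barcodes.

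After thinning to 1500 UMIs, Dcx at P11 was seen in 37.8% of horizontal cells (36.4 to 39.2) and 2.86% of 35 rod-marker barcodes (0.0723 to 14.9), and Basp1 in 84.4% and 17.1%. Gap43 was seen in 6.64% (5.95 to 7.39) and in 0 of 35 rod-marker barcodes, whose number allows a share of up to 10%. All 36 of these barcodes together held 0 Gap43 UMIs and 82 Mgarp UMIs at P11. Horizontal cells of that age held only 0.856 Gap43 UMIs for each 100 Mgarp UMIs, so this count of 0 cannot show whether free Gap43 RNA was present. At P6 the Gap43 shares were 28.8% of horizontal cells and 4% of 25 rod-marker barcodes (0.101 to 20.4). Marcks at P11 was seen in 11.3% of horizontal cells (10.4 to 12.2) and 11.4% of rod-marker barcodes (3.2 to 26.7). The horizontal cells held 1.55 Marcks UMIs for each 100 Mgarp UMIs at P11, and the rod-marker barcodes 13.4, the latter from 11 Marcks and 82 Mgarp UMIs. The source of the Marcks in these barcodes was not tested. At that age Marcks stood at 83.98 CPM in horizontal cells and 114 CPM (57.1 to 205) in rod-marker barcodes, while the rod list stood at 6.78 and 22467.4 CPM. The part of rod RNA in the Marcks of horizontal cells was not tested.

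The wider pathway lists were counted at 1.5-fold between P11 and P6, where 12.3% of all genes were lower and 7.35% higher. Among doublecortin-related and neurite microtubule genes, 8 of 17 measured were lower and 1 was higher (median log2 ratio -0.52, against -0.08 over all genes). The tubulin gene Tubb2b had 1265, 966.6 and 224.3 CPM at P6, P8 and P11, and the stathmin gene Stmn1, whose product destabilises microtubules, 590.5, 373.4 and 150.2 CPM. Tubb2a, a close paralog of Tubb2b, was the higher one, with 1441, 2672 and 2334 CPM.

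Among growth cone actin regulators, 6 of 17 were lower and 1 was higher (median -0.51). Fscn1, the gene of the filopodial actin bundler fascin, had 98.29, 41.76 and 18.65 CPM, and the thymosin gene Tmsb10 1592, 1343 and 413.3 CPM. Cap1, which encodes a cyclase-associated protein that recycles actin, had 41.1, 60.12 and 62.02 CPM. Both lists thus held genes that were 3.85-fold to 5.64-fold lower at P11 beside others with no such difference, as the 9 genes did.

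Of 12 kinase, phosphatase and calmodulin genes acting on MARCKS and GAP-43, 1 was lower and 0 were higher (median -0.21). The lower one was Prkca, the gene of protein kinase C alpha, with 106.7, 45.46 and 48.82 CPM. Of 16 CRMP kinases and partners, 3 were lower and 0 higher (median -0.37). They were Dpysl4, the fifth CRMP gene, with 204.1, 150 and 75.32 CPM, the tubulin gene Tubb3 with 593.8, 471.6 and 289.6 CPM, and the kinase gene Fyn with 195.4, 122.5 and 123.1 CPM.

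Few semaphorin genes and receptors reached 20 CPM. Of 12 receptor genes listed 3 did, of which 2 were lower, the plexin genes Plxna4 with 372.5, 127.3 and 164.1 CPM and Plxna2 with 82.56, 39.03 and 53.52 CPM (list median -0.63). Of 20 semaphorin genes 5 did, and 1 of these was lower, Sema6d, with 141, 73.48 and 72.34 CPM (median -0.45). Plxna4 and Plxna2 were lowest at P8, as Dpysl2 was. This course was not particular to them. In the longest span group the median log2 ratio was -0.73 for P8 over P6 and 0.43 for P11 over P8. In the fourth group, which holds Dpysl2, these medians were -0.29 and 0.19. The share of all genes lowest at P8 was not counted.

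The genes whose course over the 3 ages was most like that of Gap43, by distance in the log2 ratios of P8 over P6 and P11 over P6 among the 3970 genes that reached 50 CPM at any age and were eligible, were Htr1b (distance 0.06), Tnni1 (0.16) and Marcks (0.24). Htr1b, a serotonin receptor gene, had 50.97, 31.53 and 9.703 CPM. For Marcks they were Htr1b (0.20), Gap43 (0.24) and Vps8 (0.28). Marcksl1 had no near neighbour, the closest being Mir670hg (1.67), Filip1l (2.07) and Nt5dc2 (2.25).

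In mm10, Gap43 (ENSMUSG00000047261) lies at chr16:42248442-42340651, Basp1 (ENSMUSG00000045763) at chr15:25363277-25413764, Marcks (ENSMUSG00000069662) at chr10:37133375-37138920, Dpysl2 (ENSMUSG00000022048) at chr14:66802864-66868688, Dpysl3 (ENSMUSG00000024501) at chr18:43320984-43438286 and Dcx (ENSMUSG00000031285) at chrX:143855842-143933311, all on the minus strand. Marcksl1 (ENSMUSG00000047945) at chr4:129513581-129515985, Dpysl5 (ENSMUSG00000029168) at chr5:30711564-30799375 and Crmp1 (ENSMUSG00000029121) at chr5:37241940-37292133 lie on the plus strand. Crmp1 overlaps the antisense gene Evc, which had 18, 7 and 24 UMIs, and Dpysl5 overlaps Gm42764, with 2, 0 and 1.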

How the data were processed

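Per the submitters' processing notes, the authors used Cell Ranger 7.1.0 and mm10; what they deposited are raw UMI counts. The annotation used and the treatment of intron reads were not stated in the sources. Gene positions came from GENCODE vM21, in which 32158 of 32285 features and all 9 genes matched by ID.

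Horizontal cell counts were added up within each library and scaled to their total to give CPM (Python 3.11.15, numpy 2.4.6, scipy 1.17.1). Doublets were kept; an alternative removed 506, 165 and 230 cells by scrublet score (scanpy 1.11.5). Free RNA was not subtracted. With 1 library per age nothing was tested, and a ratio was called at 2-fold (lists at 1.5-fold) when the higher age reached 20 CPM. The 2-fold rule was run on simulated Poisson counts in which the libraries differed only in depth and in set folds. That run checks the calculation and does not cover shifts between libraries from scaling or span. Alternatives changed the scaling (TMM of edgeR 4.0.16, size factors of DESeq2 1.42.0), the cell limits, the thinning and the minimum level. Named were all 9 members, the 3 nearest genes of Gap43, Marcks and Marcksl1, and from each list the 2 highest and 2 lowest called genes, while Fyn, Xist and the Y-linked genes were added after their values were seen. The members and lists were chosen with earlier results of these data known.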

Additional observations from a re-analysis of the deposited data

How the results depend on the processing

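Of 323 log2 ratios of the 9 genes recomputed under alternatives, 313 kept their side of the 2-fold limit, 5 newly passed it and 4 no longer did. A change of sign was counted only for ratios past the limit. The 1 of these that turned was Dcx for P11 over P6, 0.09 when barcodes with at least 2 markers of any other list were left out. That setting left 229, 39 and 36 cells because C1ql1, Nefl and other listed markers are found in most horizontal cells. Ratios within the limit changed sign there too. Basp1 had -0.45 in place of 0.11 for P8 over P6, and Dcx 0.37 in place of -0.24 for P11 over P8. The number of the 9 genes at least 2-fold lower at P8 than at P6 was 4 under that setting and 1 under TMM and under median-of-ratios scaling, in place of 2. These scalings moved the median log2 ratio of all genes from -0.14 to 0.16 and 0.20 for P8 over P6, from 0.07 to -0.01 and -0.05 for P11 over P8, and from -0.08 to 0.13 and 0.13 for P11 over P6. In the lists, lower semaphorin receptor genes numbered 1 under TMM, median-of-ratios scaling and a minimum of 100 CPM. Higher kinase, phosphatase and calmodulin genes numbered 1 under both scalings. Higher actin regulators numbered 2 under both scalings and 0 at 100 CPM. For scaling, the shift of all genes is part of the construction; otherwise the cause was not tested. Shares of cells with a UMI follow the number of UMIs kept, so that Gap43 at P11 was seen in 6.64%, 11.8% and 21.8% of cells at 1500, 3000 and 6000 UMIs. No paired analysis was possible because each age has 1 library and no test. Leaving out a library was likewise not possible within an age, and neither animal nor batch variation can be told from age.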
